A study of Homo sapiens with 8 samples.

Results

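The 37 genes described here encode proteins of the lysosome and of autophagy, and they were taken by symbol from these families in the raw count table. They split into 27 lysosomal genes and 10 genes of the autophagy machinery. The lysosomal genes comprise 24 hydrolases, activators, membrane proteins and proton pump subunits, and the 3 transcription factors TFEB, TFE3 and MITF. All 37 symbols were found among the 25369 genes of the table, and all 37 were among the 14016 genes that passed the filter on low counts.

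The cells were MDA-MB-231, an established human triple-negative breast cancer line, profiled by RNA sequencing in 8 libraries, 2 for each of 4 groups. SUN2KO cells had the gene for SUN2 knocked out. SUN2 is a protein of the inner nuclear membrane that links the nuclear lamina to the cytoskeleton. Kashlid cells carried a SUN2 lacking residues 569 to 585, a deletion meant to break the link to Nesprin-2G in the outer nuclear membrane. LBD cells carried a SUN2 lacking residues 1 to 139, the lamin binding domain. WT cells are given as wild-type MDA-MB-231. Whether the 2 truncations were placed in SUN2KO or in WT cells, how this was done and whether each line is 1 clone is not stated in the labels. Nor do they describe the 2 libraries of a group as separate cultures. The spread behind every p-value is that between the 2 libraries within a group, pooled over the 4 groups, and may be technical.

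Lysosomes are acidic organelles that break down material delivered by endocytosis and autophagy. Their interior is acidified by a proton pump, the V-ATPase, and their hydrolases include the cathepsins and the enzymes that degrade glycans and sphingolipids. TFEB, TFE3 and MITF are related transcription factors that bind a palindromic E-box, the CLEAR motif, in the promoters of many lysosomal genes, and the kinase complex mTORC1 on the lysosomal surface restrains TFEB and TFE3. In autophagy a membrane decorated with proteins of the LC3 and GABARAP family closes around cargo and fuses with the lysosome.

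Promoters were read from RefSeq (GRCh38.p14) for 30 of the 37 genes, as windows from 250 bases before to 50 bases after the gene's start. The 5 windows printed here were picked because they hold E-boxes in different numbers, at genes that moved in different directions. Capitals mark the 6 letters CACGTG, searched on both strands, in LAMP1 (chr13:113296989-113297288, plus strand), CTSD (chr11:1763878-1764177, minus strand), MCOLN1 (chr19:7522374-7522673, plus strand) and GAA (chr17:80101331-80101630, plus strand). In GPNMB (chr7:23246525-23246824, plus strand), which holds no CACGTG, capitals mark CACATG, the reverse complement of the M-box core CATGTG. All are written 5′ to 3′ along the gene.
LAMP1: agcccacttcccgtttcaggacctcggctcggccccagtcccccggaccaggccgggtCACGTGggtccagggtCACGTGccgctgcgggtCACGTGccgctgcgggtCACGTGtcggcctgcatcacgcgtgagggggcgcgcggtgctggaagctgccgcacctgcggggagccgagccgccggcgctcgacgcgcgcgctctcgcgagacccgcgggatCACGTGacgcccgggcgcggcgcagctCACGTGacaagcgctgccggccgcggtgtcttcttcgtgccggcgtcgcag
CTSD: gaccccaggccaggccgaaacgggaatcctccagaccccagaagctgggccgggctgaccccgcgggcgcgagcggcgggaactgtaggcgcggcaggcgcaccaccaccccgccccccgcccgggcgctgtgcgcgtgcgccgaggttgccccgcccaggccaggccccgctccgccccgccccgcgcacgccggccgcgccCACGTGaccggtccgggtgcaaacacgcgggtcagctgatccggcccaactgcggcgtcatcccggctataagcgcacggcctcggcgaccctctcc
MCOLN1: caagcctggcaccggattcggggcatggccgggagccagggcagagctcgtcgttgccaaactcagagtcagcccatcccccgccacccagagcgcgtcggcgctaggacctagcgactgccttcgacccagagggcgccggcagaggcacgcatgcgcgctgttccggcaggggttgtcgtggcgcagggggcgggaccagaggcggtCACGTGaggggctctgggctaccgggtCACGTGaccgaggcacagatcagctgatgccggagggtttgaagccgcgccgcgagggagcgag
GAA: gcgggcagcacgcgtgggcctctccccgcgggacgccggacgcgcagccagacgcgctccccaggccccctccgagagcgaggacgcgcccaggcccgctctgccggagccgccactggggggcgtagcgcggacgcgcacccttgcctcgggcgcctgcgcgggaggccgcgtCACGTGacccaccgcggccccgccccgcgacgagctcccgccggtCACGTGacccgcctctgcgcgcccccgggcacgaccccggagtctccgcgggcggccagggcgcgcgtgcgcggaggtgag
GPNMB: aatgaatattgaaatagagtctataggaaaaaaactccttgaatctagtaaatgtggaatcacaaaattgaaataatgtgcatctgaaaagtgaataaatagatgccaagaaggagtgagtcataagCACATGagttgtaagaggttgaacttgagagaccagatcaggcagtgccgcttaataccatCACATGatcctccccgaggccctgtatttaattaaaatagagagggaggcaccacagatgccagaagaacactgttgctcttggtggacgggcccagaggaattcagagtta

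The LAMP1 window held 6 copies of CACGTG, which began between 192 bases and 1 base before the start of the gene. CTSD held 1 copy, 47 bases before its start. MCOLN1 and GAA held 2 copies each, and the full CLEAR palindrome, which is TCACGTGA with a G before it and a C after it, was present in these 2 alone among the 21 lysosomal promoters read. CACGTG was found in 8 of these 21 promoters (38.1%), those of LAMP1, CTSA, CTSD, GAA, NEU1, MCOLN1, ATP6V0D1 and CD63. It was found in 0 of 9 promoters of the autophagy machinery and in 2548 of all 35116 promoters of the table (7.256%). The longer TCACGTGA was in 5 of the 21 lysosomal promoters (23.81%) and in 0.9796% of all promoters. The palindrome was held by 9.524% of the lysosomal promoters and by 0.3531% of all promoters, and both longer motifs contain CACGTG. The M-box core CATGTG, on either strand, was in 4 of 21 lysosomal promoters (19.05%) and in 11.1% of all promoters. The 35116 promoters include those of genes not tested here, so their shares are not those of the tested genes. Among tested genes with a promoter in the table, 1012 held CACGTG and 9025 did not. Of these tested genes, 188 held TCACGTGA, 75 the palindrome and 673 the M-box core. These counts describe letters in a window and not binding.

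Total counts lay between 16570099 and 18814795 per library. Values below are CPM, counts per 1000000 of effective library size. SUN2 stood at 25.6 and 30.3 CPM in SUN2KO, 37.2 and 35.4 CPM in Kashlid, 32.5 and 34.6 CPM in LBD, and 83.7 and 81.8 CPM in WT, and counts per gene cannot show which part of the transcript was read. The line's mesenchymal markers VIM, CD44 and EGFR were at 137 CPM or more in every library. Of the markers known to be low in the line, ESR1 was at 0.913 CPM or less and PGR at 0.0594 CPM or less. The third, ERBB2, was at 47.8 to 57.9 CPM. The 5 macrophage markers, from cells rich in lysosomes, summed to 4.45 to 5.98 CPM in the 3 SUN2 lines and to 10.99 to 11.9 CPM in WT. CSF1R made up most of that sum (3.81 to 4.90 CPM in the SUN2 lines, 10.2 to 10.9 CPM in WT), CD163 was at 0 in every library and LYZ at or below 0.0578 CPM. The 6 melanocytic markers summed to 1.84 to 3.53 CPM in the SUN2 lines and 2.67 to 3.12 CPM in WT, with TYR at 0 in every library. The 6 markers of HEK293 cells summed to 4.80 to 6.44 CPM in the SUN2 lines and 9.08 to 9.33 CPM in WT, mostly TUBB2B, and the 6 luminal breast markers to 19.4 to 25.0 CPM in the SUN2 lines and 13.7 to 16.1 CPM in WT, mostly FOXA1. The part of these marker levels in the results was not tested.

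Most lysosomal transcripts that differed from WT were lower in the SUN2 lines. Of the 10 autophagy genes, MAP1LC3B alone was called lower in all 3, where 12.8% of all tested genes were. With SUN2KO against WT, edgeR's quasi-likelihood test at a Benjamini-Hochberg adjusted p under 0.05 called 21 of the 37 genes, 7 higher and 14 lower, against 36.7% of all tested genes. With Kashlid against WT it called 25, 7 higher and 18 lower, against 44.5% of all tested genes. With LBD against WT it called 25, 7 higher and 18 lower, against 40.0% of all tested genes. Of all tested genes, 17.5% were called higher and 19.1% lower in SUN2KO, 21.7% higher and 22.7% lower in Kashlid, and 19.0% higher and 21.0% lower in LBD. These 3 comparisons share the 2 WT libraries. In bulk RNA, less transcript per cell and fewer cells that make it cannot be told apart.

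Of the 27 lysosomal genes, 13 were called lower and 4 higher in SUN2KO, 16 lower and 4 higher in Kashlid, and 17 lower and 4 higher in LBD. Their median log2 fold change against WT was -0.14 in SUN2KO, -0.32 in Kashlid and -0.27 in LBD, where the median over all tested genes lay between 0.00 and 0.01. Of the 10 autophagy genes, 1 was called lower and 3 higher in SUN2KO, and 2 lower and 3 higher in Kashlid. In LBD 1 was lower and 3 were higher. Their medians were 0.06, 0.11 and 0.11 in the same order. The shares called, 40%, 50% and 40%, were near the 36.7%, 44.5% and 40.0% of all tested genes. The 24 lysosomal proteins without the factors summed to 4686 and 4609 CPM in SUN2KO, 3844 and 3969 CPM in Kashlid, 4328 and 4327 CPM in LBD, and 5222 and 5301 CPM in WT. Every WT library was above every other one, and both Kashlid libraries were lowest. The 10 autophagy genes summed to 1216 and 1206 CPM in SUN2KO and 1105 and 1098 CPM in Kashlid. They summed to 1175 and 1174 CPM in LBD and 1159.5 and 1198 CPM in WT, so that the LBD and WT libraries overlapped. Such sums follow the most abundant genes. SQSTM1 averaged 555 CPM in WT and 448 CPM in Kashlid. Among lysosomal genes, PSAP averaged 1473 and 1121 CPM and CTSD 851 and 402 CPM in these groups.

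**Figure D1:**
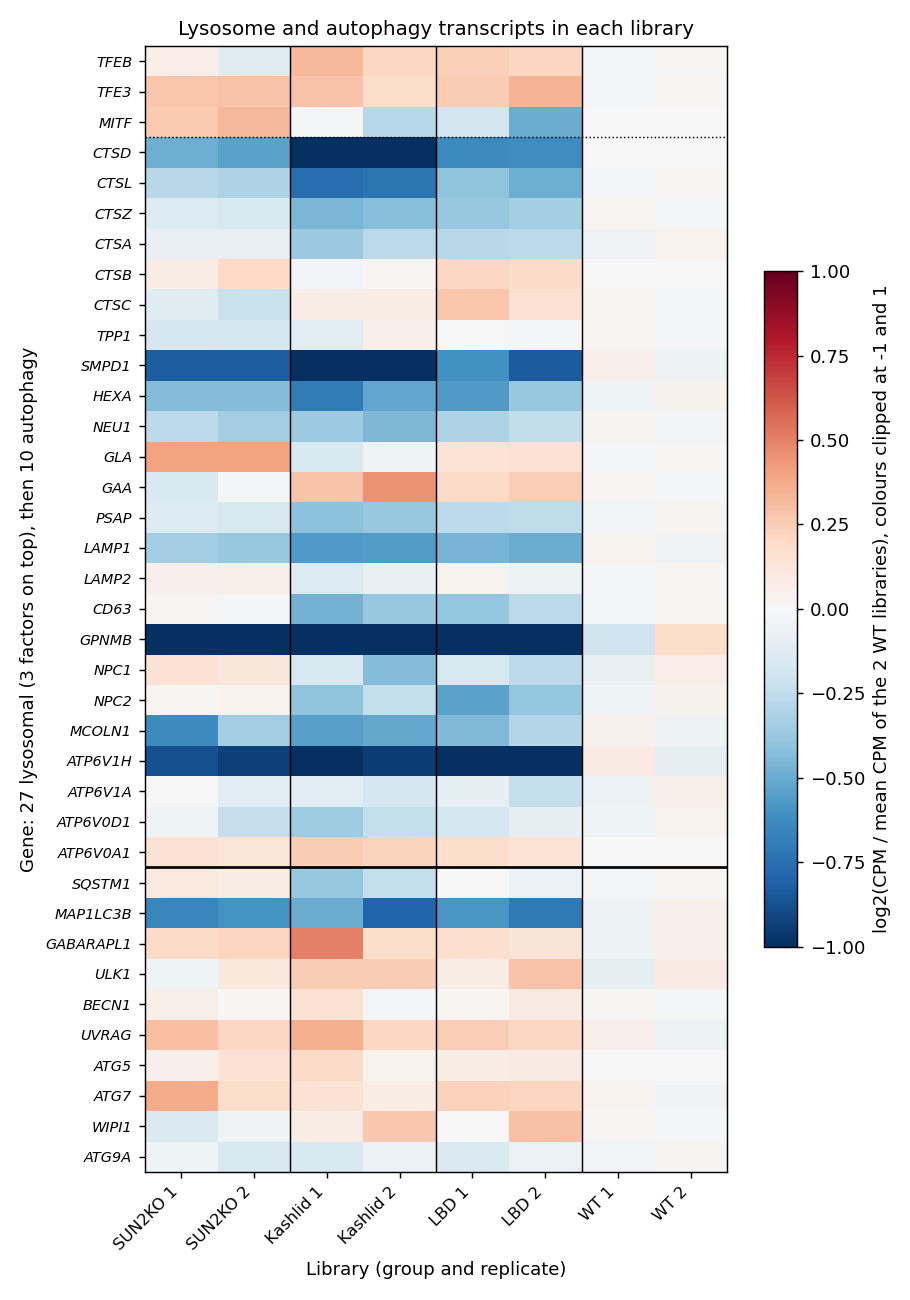
Log2 ratio of each gene's CPM to the mean of the 2 WT libraries, for 37 genes (down the page) in 8 libraries (across), with colours clipped at -1 and 1. Lysosomal genes had a median ratio of -0.36 and -0.28 in the 2 Kashlid libraries, -0.26 in both LBD libraries, and -0.12 and -0.15 in SUN2KO, and the autophagy genes had medians of 0.04 to 0.15 in these 6 libraries.

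In all, 11 lysosomal genes were called lower than WT in each of the 3 lines: LAMP1, CTSD, CTSL, CTSZ, HEXA, NEU1, PSAP, SMPD1, MCOLN1, GPNMB and ATP6V1H. These are 40.7% of the 27, where 12.8% of all 14016 tested genes were called lower in all 3 lines. A further 4, CTSA, NPC1, NPC2 and CD63, were called lower in Kashlid and LBD and not in SUN2KO. How many of all tested genes had this pattern was not counted. TFE3 was the lysosomal gene called higher in all 3 lines, as were 10.3% of all tested genes. LAMP2, a highly glycosylated protein of the lysosomal membrane, was not called in any of them, with log2 fold changes of 0.05 ± 0.06 in SUN2KO, -0.10 ± 0.06 in Kashlid and -0.01 ± 0.06 in LBD (± is the SE of the fit here and below).

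The 3 transcription factors did not move together. TFE3 (chromosome X, 48886238 to 48901043 on hg19) was at 95.7 and 96.1 CPM in SUN2KO, 96.0 and 89.7 CPM in Kashlid, 93.8 and 99.5 CPM in LBD, and 77.8 and 79.8 CPM in WT. The WT libraries were below all others, and the SUN2 lines overlapped one another. TFE3 rose by 0.28 ± 0.06 in SUN2KO (adjusted p = 9.10e-04), 0.24 ± 0.06 in Kashlid (0.00330) and 0.29 ± 0.06 in LBD (5.87e-04). TFEB, the best studied regulator of lysosome biogenesis, rose in Kashlid (0.26 ± 0.10, adjusted p = 0.0349) and had -0.02 ± 0.10 in SUN2KO and 0.23 ± 0.10 in LBD, neither called. The TFEB call was lost without Kashlid replicate 1 (adjusted p = 0.189), WT replicate 1 (0.130) or WT replicate 2 (0.103), and in DESeq2 (0.127).

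MITF (chromosome 3, 69915375 to 70017488), known as the master factor of melanocytes, separated the lines. Its level was 53.0 and 55.6 CPM in SUN2KO, 43.7 and 36.4 CPM in Kashlid, 39.0 and 31.4 CPM in LBD, and 44.3 CPM in both WT libraries. Both SUN2KO libraries were above WT and all Kashlid and LBD libraries were below it. MITF rose in SUN2KO by 0.29 ± 0.09 (adjusted p = 0.0169) and fell in LBD by 0.33 ± 0.10 (0.0102), and Kashlid had -0.14 ± 0.10, not called. The SUN2KO call was lost without SUN2KO replicate 1 (0.0520), SUN2KO replicate 2 (0.123), WT replicate 1 (0.0764) or WT replicate 2 (0.0876). The LBD call was lost without LBD replicate 2 (0.208) or WT replicate 2 (0.0526). Relative to SUN2KO, MITF had -0.62 ± 0.10 in LBD (adjusted p = 8.93e-05) and -0.44 ± 0.09 in Kashlid (0.00218).

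Of the 6 cathepsins among the 37 genes, proteases of the lysosome, CTSD and CTSL had the largest log2 fold changes against WT in each line. CTSD (chromosome 11, 1773982 to 1785222), an aspartic protease, was at 608 and 588 CPM in SUN2KO, 389.7 and 414 CPM in Kashlid, 548 and 553 CPM in LBD, and 854 and 848 CPM in WT. No 2 groups overlapped, with WT highest and Kashlid lowest. Relative to WT, CTSD was at 70.3% in SUN2KO, at 47.2% in Kashlid and at 64.7% in LBD, and the log2 fold changes were -0.51 ± 0.04, -1.08 ± 0.04 and -0.63 ± 0.04. Adjusted p-values were 1.28e-08 in SUN2KO, 8.91e-14 in Kashlid and 4.18e-10 in LBD.

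CTSL (chromosome 9, 90340974 to 90346384), a cysteine protease, was at 199 and 194 CPM in SUN2KO, 142 and 145 CPM in Kashlid, 182 and 172 CPM in LBD, and 238 and 243 CPM in WT. Its 4 groups did not overlap and had the same order as for CTSD. CTSL fell by 0.29 ± 0.05 in SUN2KO (adjusted p = 1.10e-04), 0.75 ± 0.05 in Kashlid (3.35e-10) and 0.45 ± 0.05 in LBD (6.18e-07). CTSZ, another cysteine protease, fell by 0.14 ± 0.05 in SUN2KO, by 0.44 ± 0.05 in Kashlid and by 0.36 ± 0.05 in LBD. The CTSZ call in SUN2KO was lost without SUN2KO replicate 1 (adjusted p = 0.101), SUN2KO replicate 2 (0.127), WT replicate 1 (0.173) or WT replicate 2 (0.0578), and with an offset for neighbouring genes, described further on. CTSA, the protective protein that holds NEU1 and beta-galactosidase in a complex, fell by 0.32 ± 0.05 in Kashlid and 0.27 ± 0.05 in LBD, and had -0.08 ± 0.05 in SUN2KO, not called.

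CTSB and CTSC were called higher than WT in at least 1 line. CTSC (chromosome 11, 88026760 to 88070941), which activates serine proteases in granules, was at 146 and 136 CPM in SUN2KO, 167 and 168 CPM in Kashlid, 193 and 177 CPM in LBD, and 161 and 158 CPM in WT. Both SUN2KO libraries were below and both LBD libraries above all others. CTSC fell in SUN2KO by 0.17 ± 0.06 and rose in LBD by 0.22 ± 0.06, and Kashlid had 0.07 ± 0.06, not called. The SUN2KO call was lost without SUN2KO replicate 2 (adjusted p = 0.218), WT replicate 1 (0.116) or WT replicate 2 (0.0559), and the LBD call without LBD replicate 1 (0.0726). CTSB, a cysteine protease, rose by 0.14 ± 0.05 in SUN2KO and 0.20 ± 0.05 in LBD and had -0.00 ± 0.05 in Kashlid, not called. Its SUN2KO call was lost in DESeq2 (0.0665) and without SUN2KO replicate 2 (0.376), LBD replicate 1 (0.0541), WT replicate 1 (0.152) or WT replicate 2 (0.132). TPP1, a tripeptidyl peptidase, fell in SUN2KO alone (-0.17 ± 0.06), a call lost without SUN2KO replicate 1 (0.0984), SUN2KO replicate 2 (0.116), WT replicate 1 (0.142) or WT replicate 2 (0.0583).

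Of the enzymes of sphingolipid and glycan breakdown, SMPD1, HEXA and NEU1 were lower than WT in all 3 lines. SMPD1 (chromosome 11, 6411644 to 6416228), acid sphingomyelinase, was at 19.6 and 19.7 CPM in SUN2KO, 14.2 and 14.4 CPM in Kashlid, 22.9 and 19.6 CPM in LBD, and 36.1 and 33.6 CPM in WT. WT was highest and Kashlid lowest, and SUN2KO and LBD overlapped. Relative to WT, it was at 56.4% in SUN2KO, at 41.0% in Kashlid and at 61.0% in LBD, with log2 fold changes of -0.83 ± 0.10 (adjusted p = 1.59e-06), -1.29 ± 0.10 (3.99e-09) and -0.71 ± 0.10 (8.10e-06).

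HEXA (chromosome 15, 72635778 to 72668520), the alpha subunit of hexosaminidase A, was at 56.2 and 56.0 CPM in SUN2KO, 46.7 and 53.0 CPM in Kashlid, 51.3 and 58.2 CPM in LBD, and 73.7 and 77.9 CPM in WT. Both WT libraries lay above all others. LBD overlapped SUN2KO and Kashlid, and both Kashlid libraries were below SUN2KO, a difference not called. HEXA fell by 0.43 ± 0.08 in SUN2KO, 0.61 ± 0.08 in Kashlid and 0.47 ± 0.08 in LBD. NEU1, a sialidase, fell by 0.30 ± 0.07, 0.40 ± 0.07 and 0.28 ± 0.07 in the same order. PSAP, the precursor of the saposins that present sphingolipids to these enzymes, fell by 0.15 ± 0.04 in SUN2KO, by 0.39 ± 0.04 in Kashlid and by 0.26 ± 0.04 in LBD. The PSAP call in SUN2KO was lost without WT replicate 2 (adjusted p = 0.0566).

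GLA and GAA were higher than WT in some lines. GLA (chromosome X, 100652779 to 100663001), alpha-galactosidase A, was at 80.7 and 80.8 CPM in SUN2KO, 54.9 and 59.4 CPM in Kashlid, 67.3 and 67.4 CPM in LBD, and 60.5 and 61.8 CPM in WT. SUN2KO was above all others. GLA rose in SUN2KO by 0.40 ± 0.06 (adjusted p = 4.79e-05), and Kashlid (-0.10 ± 0.07) and LBD (0.14 ± 0.07) were not called. GAA (chromosome 17, 78075355 to 78093679), the acid alpha-glucosidase that degrades glycogen, was at 53.1 and 58.7 CPM in SUN2KO, 72.2 and 80.9 CPM in Kashlid, 67.7 and 70.2 CPM in LBD, and 59.6 and 58.9 CPM in WT. Kashlid and LBD were above WT, and SUN2KO was below it. GAA rose in Kashlid by 0.37 ± 0.07 (2.62e-04) and in LBD by 0.22 ± 0.07 (0.0196), and had -0.08 ± 0.07 in SUN2KO. The LBD call was lost in DESeq2 (0.0524) and without LBD replicate 2 (0.118), WT replicate 1 (0.0741) or WT replicate 2 (0.0994).

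**Figure D2:**
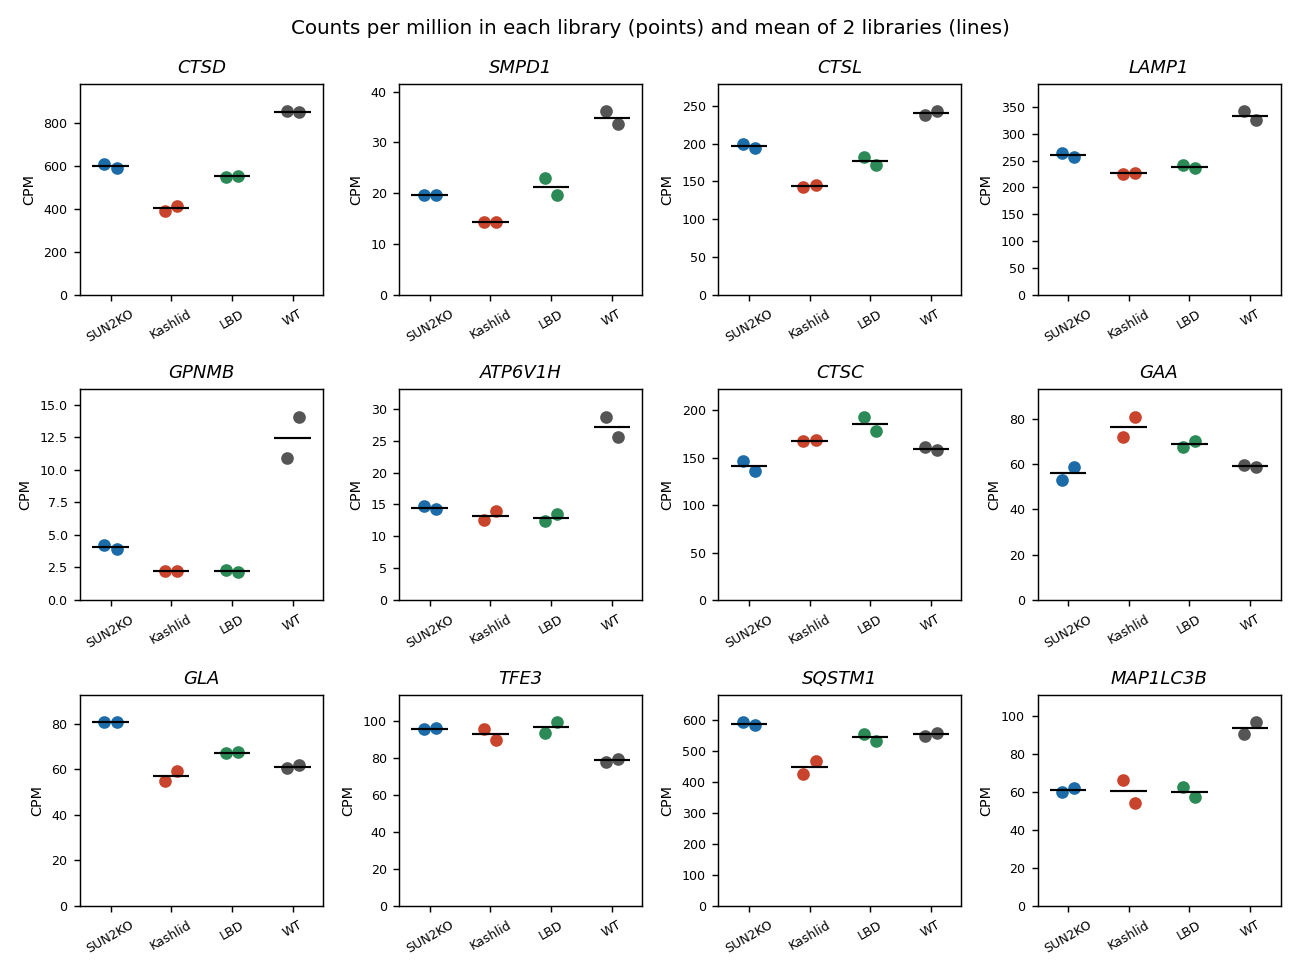
CPM (vertical axes, starting at 0) of 12 genes in the 2 libraries of each group, as points, with the mean as a line. CTSD, CTSL, SMPD1 and LAMP1 had their lowest points in Kashlid and their highest in WT, GPNMB was at 2.15 to 4.22 CPM in the SUN2 lines and 10.9 and 14.1 CPM in WT, and GAA, GLA and CTSC had their highest points in a SUN2 line.

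None of the 7 genes of the lysosomal membrane and of lipid transport among the 37 was called higher than WT in any line. LAMP1 (chromosome 13, 113951469 to 113977741), the most widely used marker of the lysosomal membrane, was at 264 and 256 CPM in SUN2KO, 225 and 227 CPM in Kashlid, 242 and 236 CPM in LBD, and 342 and 325 CPM in WT. The groups did not overlap. LAMP1 fell by 0.36 ± 0.05 in SUN2KO (adjusted p = 5.53e-06), 0.56 ± 0.05 in Kashlid (8.68e-09) and 0.48 ± 0.05 in LBD (9.39e-08).

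GPNMB (chromosome 7, 23286316 to 23314729), a transmembrane glycoprotein of lysosomes and melanosomes, had the largest log2 fold change of the 37 genes in each line against WT. It was at 4.22 and 3.92 CPM in SUN2KO, 2.25 and 2.23 CPM in Kashlid, 2.31 and 2.15 CPM in LBD, and 10.9 and 14.1 CPM in WT, and its lowest library held 36 counts. The WT libraries were above all others, and Kashlid and LBD overlapped below SUN2KO. Its mean was 32.6% of that in WT for SUN2KO, 18.0% for Kashlid and 17.9% for LBD, with log2 fold changes of -1.62 ± 0.19 (adjusted p = 9.42e-07), -2.47 ± 0.21 (6.31e-09) and -2.48 ± 0.21 (7.28e-09). Among macrophage markers, CSF1R, as given above, and PTPRC, below 0.42 CPM in every library, were lower than WT in the SUN2 lines, as GPNMB was. CD14 was higher in SUN2KO (0.752 to 1.03 CPM) than in WT (0.357 to 0.681 CPM), and overlapped WT in Kashlid and LBD. The part of these markers in the result was not tested.

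MCOLN1 (chromosome 19, 7587496 to 7598895), a calcium channel of the lysosome, was at 22.7 and 27.7 CPM in SUN2KO, 24.2 and 24.7 CPM in Kashlid, 25.9 and 28.8 CPM in LBD, and 36.3 and 34.0 CPM in WT. All libraries of the SUN2 lines were below WT. SUN2KO overlapped Kashlid and LBD, and both Kashlid libraries were below LBD, a difference not called. MCOLN1 fell by 0.48 ± 0.10 in SUN2KO, by 0.53 ± 0.10 in Kashlid and by 0.36 ± 0.10 in LBD. The LBD call was lost without LBD replicate 1 (adjusted p = 0.0868) or WT replicate 1 (0.0652).

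NPC1 and NPC2 carry cholesterol out of the lysosome, and CD63 is a tetraspanin of late endosomes. CD63 fell by 0.42 ± 0.05 in Kashlid and 0.32 ± 0.05 in LBD, and had -0.00 ± 0.05 in SUN2KO, not called. NPC2 fell by 0.32 ± 0.07 in Kashlid and 0.46 ± 0.07 in LBD, and had 0.03 ± 0.07 in SUN2KO. NPC1 fell by 0.29 ± 0.07 in Kashlid and 0.21 ± 0.07 in LBD, and had 0.13 ± 0.07 in SUN2KO, not called. The Kashlid call of NPC1 was lost without Kashlid replicate 2 (adjusted p = 0.0653) or WT replicate 2 (0.0705). Its LBD call was lost without LBD replicate 2 (0.196) or WT replicate 2 (0.273), with library size only (0.0628) and in DESeq2 (0.0514). NPC1 overlaps the gene C18orf8, which held 3405 counts over the 8 libraries against 15780 for NPC1, so that reads could be split between them.

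Of the 4 V-ATPase subunits, ATP6V1H was the one that fell in all 3 lines. ATP6V1H (chromosome 8, 54628103 to 54755871), the H subunit of the catalytic V1 sector, was at 14.7 and 14.2 CPM in SUN2KO, 12.5 and 14.0 CPM in Kashlid, 12.3 and 13.5 CPM in LBD, and 28.8 and 25.5 CPM in WT. The WT libraries were well above the 6 others. Both SUN2KO libraries were above those of Kashlid and LBD, which overlapped, and neither line was called against SUN2KO. Its mean was 53.4% of that in WT for SUN2KO, 48.9% for Kashlid and 47.6% for LBD, with log2 fold changes of -0.91 ± 0.11 (adjusted p = 2.09e-06), -1.03 ± 0.11 (3.06e-07) and -1.07 ± 0.11 (2.49e-07). ATP6V0D1, of the membrane sector, fell in Kashlid (-0.30 ± 0.07), and ATP6V0A1, of the same sector, rose there (0.24 ± 0.07), neither being called in SUN2KO or LBD. ATP6V1A, the catalytic subunit, fell in LBD (-0.17 ± 0.06), a call lost with library size only (0.0779), in DESeq2 (0.0572), and without LBD replicate 2 (0.329) or WT replicate 2 (0.306).

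**Figure D3:**
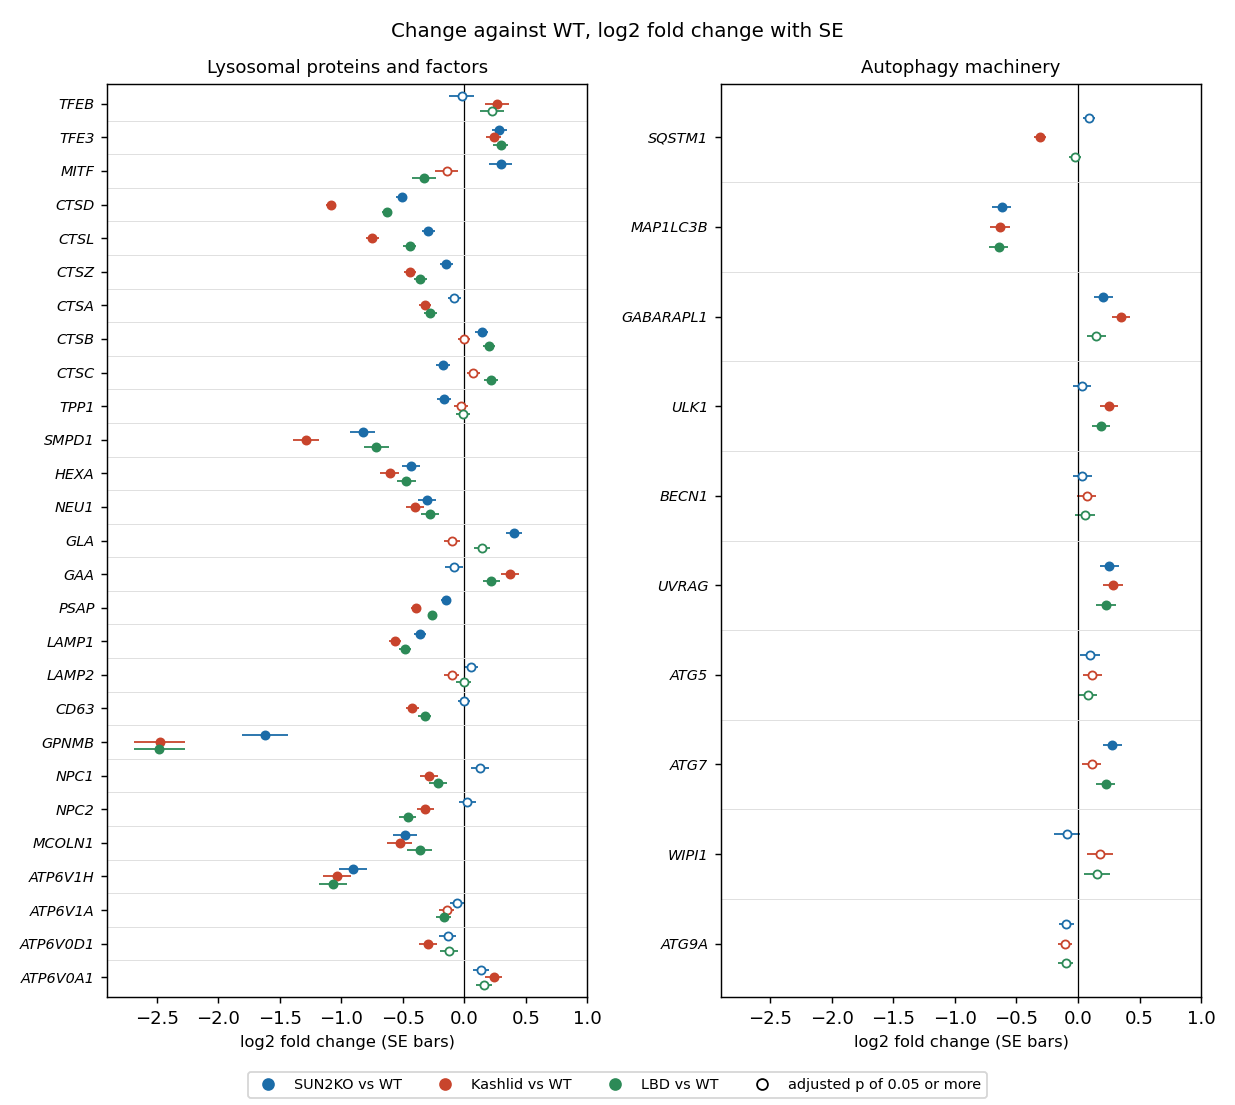
Log2 fold change against WT (horizontal axis, bars of 1 SE) of the 27 lysosomal genes, left, and the 10 autophagy genes, right, in SUN2KO, Kashlid and LBD, with open symbols where the adjusted p was 0.05 or more. The lysosomal values reach -2.48 at GPNMB and 0.40 at GLA, and the lowest values among the autophagy genes are those of MAP1LC3B, between -0.64 and -0.62.

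MAP1LC3B (chromosome 16, 87425801 to 87438380), the LC3 protein most often used to mark autophagosomes, was at 59.7 and 62.0 CPM in SUN2KO, 66.4 and 54.1 CPM in Kashlid, 62.4 and 57.3 CPM in LBD, and 90.4 and 96.7 CPM in WT. The WT libraries were above all others and the 3 SUN2 lines overlapped. MAP1LC3B fell by 0.62 ± 0.08 in SUN2KO (adjusted p = 3.41e-06), 0.64 ± 0.08 in Kashlid (1.75e-06) and 0.64 ± 0.08 in LBD (1.90e-06). Its near copy MAP1LC3B2 held 89 counts over the 8 libraries against 9588 for MAP1LC3B.

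SQSTM1 (chromosome 5, 179234003 to 179265077), the cargo receptor p62, was at 594 and 584 CPM in SUN2KO, 427 and 469 CPM in Kashlid, 557 and 533 CPM in LBD, and 549 and 561 CPM in WT. Both Kashlid libraries were below all others. SQSTM1 fell in Kashlid by 0.31 ± 0.05 (adjusted p = 2.27e-05), and SUN2KO (0.09 ± 0.05) and LBD (-0.03 ± 0.05) were not called. GABARAPL1, a member of the GABARAP family, rose by 0.21 ± 0.08 in SUN2KO and 0.35 ± 0.08 in Kashlid, and had 0.15 ± 0.08 in LBD, not called. The GABARAPL1 call in SUN2KO was lost in DESeq2 (0.0694) and without SUN2KO replicate 1 (0.114), SUN2KO replicate 2 (0.162), LBD replicate 1 (0.0576), WT replicate 1 (0.249) or WT replicate 2 (0.0578).

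Among the genes that start or shape the autophagosome, UVRAG, a partner of BECN1, rose in all 3 lines, by 0.25 ± 0.08 in SUN2KO, 0.28 ± 0.08 in Kashlid and 0.23 ± 0.08 in LBD. Each UVRAG call was lost without at least 2 of the libraries. For SUN2KO these were SUN2KO replicate 1 (adjusted p = 0.136) and WT replicate 2 (0.145), for Kashlid they were Kashlid replicate 1 (0.0743) and WT replicate 2 (0.0746), and for LBD they were LBD replicate 1 (0.116), LBD replicate 2 (0.0705) and WT replicate 2 (0.186). DESeq2 also lost the calls of UVRAG in SUN2KO (0.0565) and LBD (0.0819).

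ULK1, the kinase that starts autophagy, rose by 0.25 ± 0.07 in Kashlid and 0.18 ± 0.07 in LBD, and had 0.03 ± 0.07 in SUN2KO. The Kashlid call was lost without WT replicate 1 (adjusted p = 0.147). In LBD the ULK1 libraries overlapped those of WT and the adjusted p was 0.0496. That call was lost in DESeq2 (0.0891), under a stricter filter (0.0505), and without SUN2KO replicate 1 (0.0541), SUN2KO replicate 2 (0.0541), LBD replicate 2 (0.543) or WT replicate 1 (0.426). ATG7, the activating enzyme of the LC3 conjugation system, rose by 0.28 ± 0.08 in SUN2KO and 0.22 ± 0.08 in LBD, and had 0.11 ± 0.08 in Kashlid. The SUN2KO call of ATG7 was lost without SUN2KO replicate 1 (0.144) or WT replicate 2 (0.0808). Its LBD call was lost in DESeq2 (0.0704) and without LBD replicate 1 (0.0947), LBD replicate 2 (0.0758), WT replicate 1 (0.0529) or WT replicate 2 (0.157). ATG7 overlaps VGLL4, which held 7258 counts over the 8 libraries against 6949 for ATG7. BECN1, ATG5, ATG9A and WIPI1 were not called in any line, with log2 fold changes between -0.11 and 0.18.

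Calls were also counted by promoter motif. Of the 8 lysosomal genes described here whose promoter held CACGTG, 7 were called lower and 1, GAA, higher in Kashlid against WT. Among the 13 that did not, 6 were lower, 3 higher and 4 not called. Over all tested genes with a promoter in the table, 23.91% were called lower and 20.26% higher among 1012 genes that held it, and 23.08% were lower and 23.17% higher among 9025 that did not. In LBD 6 of the 8 were lower and 1 higher, and of the 13 without it 7 were lower and 2 higher. In SUN2KO 4 of the 8 were lower and 0 higher, and of the 13 without it 6 were lower and 3 higher. Over all such tested genes, 22.92% with CACGTG and 20.74% without it were lower in LBD. In SUN2KO these shares were 22.53% and 18.66%. GAA and MCOLN1, the pair with the full palindrome printed above, moved in opposite directions in Kashlid (0.37 and -0.53) and in LBD (0.22 and -0.36). With an offset for neighbouring genes, described further on, GAA had 0.04 in Kashlid and -0.054 in LBD, and was called in neither. The numbers of genes are small, and no difference between the 8 and the 13 was tested.

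Further genes of these pathways were taken from lists of the same families. Of 35 further lysosomal hydrolases and activators that were tested, 15 were lower and 2 higher in SUN2KO, 20 lower and 3 higher in Kashlid, and 15 lower and 4 higher in LBD. Their medians were -0.19, -0.37 and -0.20, against 0.00 to 0.01 over all genes, and 48.6%, 65.7% and 54.3% of them were called. MANBA, a beta-mannosidase, averaged 23.5 CPM in SUN2KO and 24.1 CPM in Kashlid, against 45.1 CPM in WT (-0.94 ± 0.10 and -0.90 ± 0.10). GGH, a gamma-glutamyl hydrolase, averaged 25.9 CPM in Kashlid and 29.8 CPM in LBD, against 50.4 CPM in WT (-0.96 ± 0.08 and -0.76 ± 0.08). ASAH1, acid ceramidase, fell by 0.59 ± 0.06 in SUN2KO, SCPEP1, a serine carboxypeptidase, by 0.89 ± 0.09 in Kashlid, and ARSB, arylsulfatase B, by 0.69 ± 0.11 in LBD. CTSS, a cathepsin of antigen-presenting cells, averaged 2.67 CPM in SUN2KO, where it fell by 1.28 ± 0.23, and 11.8 CPM in LBD, where it rose by 0.86 ± 0.19, against 6.50 CPM in WT. SGSH, which degrades heparan sulfate, rose in Kashlid (0.38 ± 0.07) and LBD (0.33 ± 0.08), and MAN2B1, the lysosomal alpha-mannosidase, rose in SUN2KO (0.29 ± 0.07) and Kashlid (0.30 ± 0.07).

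Of 17 further V-ATPase subunits tested, 8 were lower and 0 higher in SUN2KO, and 12 were lower and 1 higher in both Kashlid and LBD, with medians of -0.18, -0.42 and -0.28, and 47.1% were called in SUN2KO and 76.5% in both Kashlid and LBD. ATP6V1G1, of the stalk of the pump, averaged 105 CPM in SUN2KO, 81.6 CPM in Kashlid and 94.4 CPM in LBD, against 155 CPM in WT. Its log2 fold changes were -0.57 ± 0.06, -0.92 ± 0.06 and -0.71 ± 0.06. ATP6V0B, of the proteolipid ring, fell by 0.67 ± 0.07 in SUN2KO, 0.68 ± 0.07 in Kashlid and 0.55 ± 0.07 in LBD. Of 22 further membrane proteins, 9 were lower and 3 higher in SUN2KO, 9 lower and 1 higher in Kashlid, and 8 lower and 1 higher in LBD, with medians of -0.13, -0.08 and -0.03. The shares of this list called were 54.5%, 45.5% and 40.9%, where 36.7%, 44.5% and 40.0% of all tested genes were called, so that those in Kashlid and LBD were near the background. SCARB2, the receptor that carries glucocerebrosidase to the lysosome, averaged 114 CPM in SUN2KO, 102 CPM in Kashlid and 113 CPM in LBD, against 198 CPM in WT (-0.79 ± 0.06, -0.96 ± 0.06 and -0.82 ± 0.06). SLC17A5, the sialic acid exporter, rose by 0.47 ± 0.10 in SUN2KO, 0.64 ± 0.09 in Kashlid and 0.57 ± 0.10 in LBD.

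Of 39 further autophagy genes tested, 4 were lower and 8 higher in SUN2KO, 5 lower and 10 higher in Kashlid, and 4 lower and 9 higher in LBD, with medians of 0.07, 0.06 and 0.09. The shares called, 30.8% in SUN2KO, 38.5% in Kashlid and 33.3% in LBD, were below the 36.7%, 44.5% and 40.0% of all tested genes. ULK2, a relative of ULK1, averaged 6.58 CPM in SUN2KO, 5.07 CPM in Kashlid and 5.95 CPM in LBD, against 3.09 CPM in WT (1.09 ± 0.22, 0.72 ± 0.23 and 0.95 ± 0.23). BNIP3, a receptor for mitochondria, rose by 0.71 ± 0.11 in Kashlid and 0.65 ± 0.11 in LBD. The cargo receptor OPTN fell by 0.77 ± 0.08 in SUN2KO, 0.62 ± 0.08 in Kashlid and 0.61 ± 0.08 in LBD. Of 13 genes that signal to mTORC1 and TFEB on the lysosome, 5 were lower in each line, and 0 were higher in SUN2KO, 1 in Kashlid and 0 in LBD. This list, of which 38.5%, 46.2% and 38.5% were called, was near the share of all tested genes in each line. LAMTOR3, of the Ragulator scaffold, fell by 0.37 ± 0.10 in SUN2KO, 0.43 ± 0.10 in Kashlid and 0.37 ± 0.10 in LBD. FNIP2, a partner of folliculin, fell by 0.51 ± 0.13, 0.34 ± 0.13 and 0.61 ± 0.13 in the same order.

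The 3 SUN2 lines were also compared with one another. Kashlid had the lowest mean of the 4 groups in 16 of the 27 lysosomal genes, in 10 of them with both libraries below the 6 others. Over all tested genes Kashlid was lowest in 23.5%, and both its libraries were below the others in 8.55%. WT had the highest mean in 16, in 13 of them with both libraries above the 6 others. Over all tested genes these shares were 35.4% and 22.7%. Against SUN2KO, Kashlid differed in 18 of the 37 genes (4 higher, 14 lower), where 18.0% of all tested genes were called (8.92% higher, 9.13% lower). Of the lysosomal genes, 13 were lower and 3 higher, with a median of -0.17, and of the autophagy genes 1 was lower and 1 higher, with a median of 0.02. The log2 fold change of Kashlid over SUN2KO was -0.57 ± 0.04 for CTSD (adjusted p = 5.50e-09), -0.50 ± 0.06 for GLA (1.02e-05), -0.45 ± 0.05 for CTSL (1.91e-06), -0.42 ± 0.05 for CD63 (3.46e-06) and -0.39 ± 0.05 for SQSTM1 (3.98e-06). GPNMB had -0.86 ± 0.23 (0.0123), a call lost without SUN2KO replicate 1 (0.0894) or Kashlid replicate 1 (0.0512). The LAMP1 difference of -0.20 ± 0.05 was lost without SUN2KO replicate 1 (0.0782). CTSC was higher by 0.25 ± 0.06, lost without SUN2KO replicate 2 (0.0795), and ULK1 by 0.22 ± 0.07, lost in DESeq2 (0.0774) and without SUN2KO replicate 1 (0.368), Kashlid replicate 1 (0.0650) or Kashlid replicate 2 (0.0624). TFEB was higher by 0.29 ± 0.10, just inside the threshold (0.0480), and left it when any 1 library other than Kashlid replicate 2 was left out, with adjusted p between 0.0540 and 0.321, and in DESeq2 (0.168).

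LBD differed from SUN2KO in 10 of the 37 genes (2 higher, 8 lower), where 13.5% of all tested genes were called (6.69% higher, 6.79% lower), and all 10 were lysosomal. The 8 lower genes, CTSA, CTSZ, GLA, NPC1, NPC2, MITF, GPNMB and CD63, were lower in Kashlid than in SUN2KO as well, and the 2 higher ones, CTSC and GAA, were higher there. These 2 comparisons share the SUN2KO libraries, and the share of all tested genes called in both was not counted. NPC2 had -0.49 ± 0.07 in LBD against SUN2KO (adjusted p = 4.95e-05) and -0.34 ± 0.07 in Kashlid against SUN2KO (0.00139). CTSC had 0.39 ± 0.06 (4.22e-05) and GAA 0.30 ± 0.07 (0.00666) in LBD. Without SUN2KO replicate 1 the count of 10 was 4, and without LBD replicate 2 it was 5, and the calls of CTSA, CTSZ, GLA, GAA, NPC1 and GPNMB were lost with adjusted p between 0.0569 and 0.144 without SUN2KO replicate 1. GPNMB, CTSA and GLA lost their calls without any 1 of the 4 libraries compared, with adjusted p between 0.0541 and 0.119, and GPNMB also in DESeq2 (0.0618). CTSC, NPC2, MITF and CD63 were called under every alternative, though MITF had too few neighbours for an offset.

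LBD differed from Kashlid in 5 of the 37 genes, all higher in LBD, where 2.91% of all tested genes were called and 1.63% were higher. They were CTSD (0.45 ± 0.04, adjusted p = 1.49e-05), SMPD1 (0.57 ± 0.11, 0.00568), CTSL (0.30 ± 0.05, 0.00259), CTSB (0.20 ± 0.05, 0.0348) and SQSTM1 (0.28 ± 0.05, 0.00216). No library of Kashlid overlapped LBD in these 5 genes, and the same held for genes not called, such as LAMP1, GLA and PSAP. The share of all tested genes without such overlap was not counted. The call of SMPD1 was lost without LBD replicate 1 (0.114), DESeq2 gave it no adjusted p, and that of CTSB in 6 alternatives, without Kashlid replicate 1 (0.110), LBD replicate 1 (0.176), LBD replicate 2 (0.143), WT replicate 1 (0.0598) or WT replicate 2 (0.0596) and in a fit of these 2 groups alone (0.115). The count of 5 was 8 without Kashlid replicate 2 and 3 without LBD replicate 1. For GPNMB (-0.01 ± 0.26), MAP1LC3B (-0.01 ± 0.08) and ATP6V1H (-0.04 ± 0.12), LBD and Kashlid were not distinguished at this spread.

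**Figure D4:**
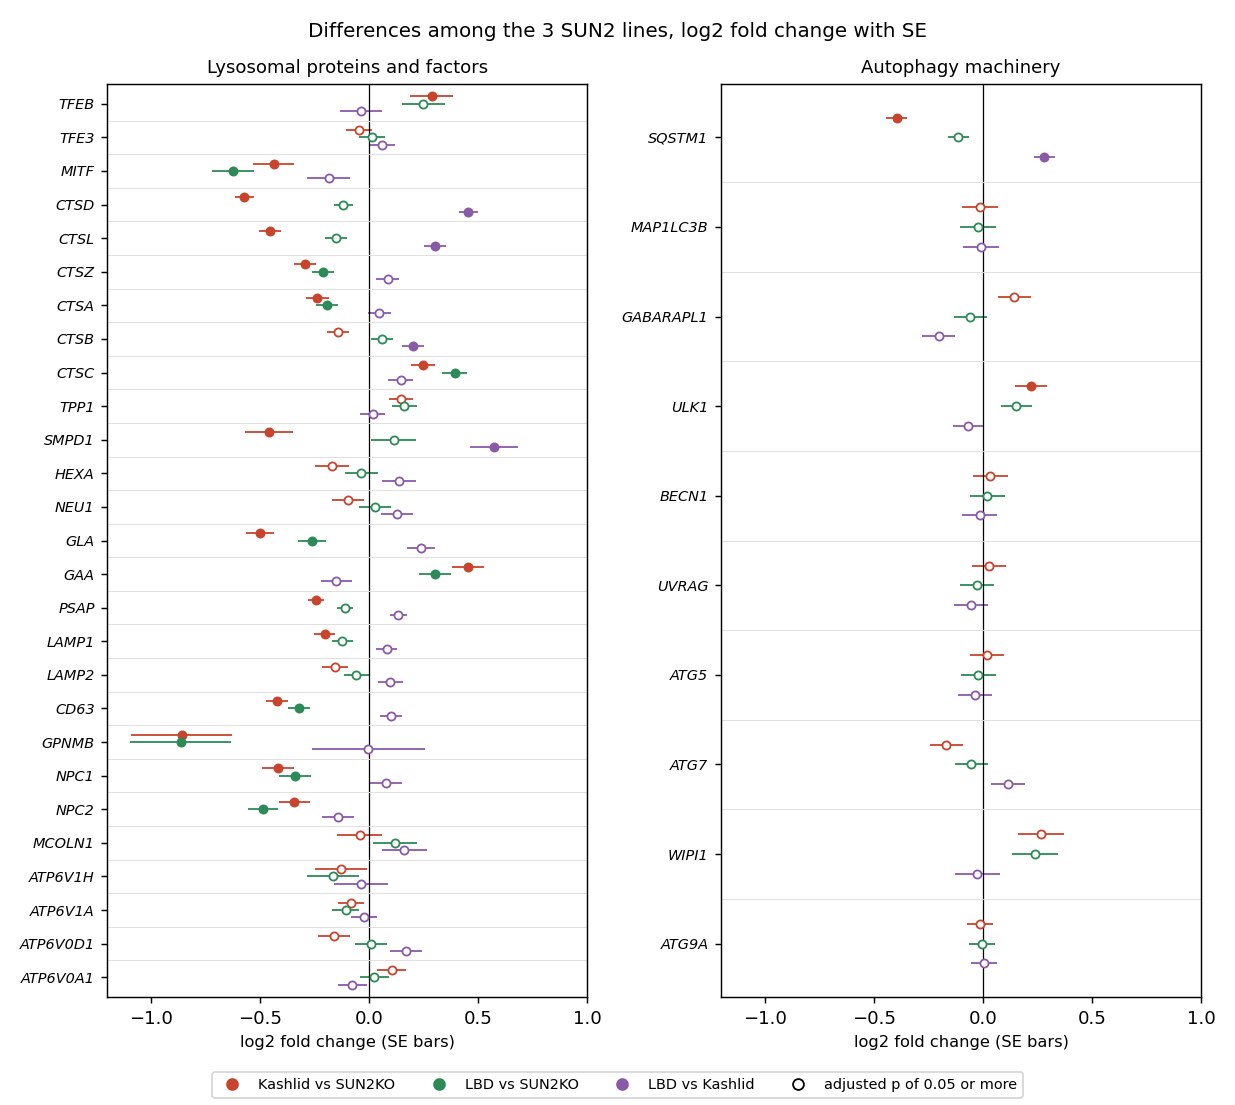
Log2 fold change (horizontal axis, bars of 1 SE) of Kashlid against SUN2KO, LBD against SUN2KO and LBD against Kashlid, for the 27 lysosomal genes, left, and the 10 autophagy genes, right, with open symbols where the adjusted p was 0.05 or more. CTSD, CTSL, SMPD1 and SQSTM1 are lower in Kashlid than in SUN2KO and higher in LBD than in Kashlid, and GPNMB has the longest bars.

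The counts against WT also moved when a library was left out. With SUN2KO against WT, 12 of the 37 genes were called without WT replicate 2, against 21 with all libraries. With library size only in place of TMM factors, LBD against WT gave 10 higher and 16 lower genes, beside the 7 and 18 above. In the authors' deposited tables, 19 of the 37 genes passed an adjusted p under 0.05 in SUN2KO, 22 in Kashlid and 20 in LBD, and all of these were called here with the same sign.

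The change of each gene was set beside that of its neighbours on the chromosome. For 35 of the 37 genes there were at least 15 other tested genes within the same 5 Mb window. MITF and ATP6V1H had fewer and were given no offset, so a change of their regions was not tested. Against WT, the neighbours' median log2 fold change ranged over -0.44 to 0.28 for SUN2KO, -0.30 to 0.33 for Kashlid, and -0.32 to 0.29 for LBD. CTSD and SMPD1 in Kashlid had -1.08 and -1.29 where their neighbours had a median of 0.03. TPP1, 217.8 kb from SMPD1 on chromosome 11, had -0.02 there.

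LAMP1, CTSL, NPC1, GPNMB and MAP1LC3B were among the genes in windows that were lower as a whole. The neighbours of LAMP1 had a median of -0.27 in SUN2KO, and with that median as an offset LAMP1 had -0.09 (adjusted p = 0.167). CTSL in SUN2KO had -0.07 (0.331) with its offset, where its neighbours had -0.22, and CTSZ there had -0.097 (0.156). NPC1 had 0.016 (0.889) in Kashlid and 0.012 (0.924) in LBD with its offset, since its neighbours had -0.30 and -0.22. GAA, GABARAPL1, TFEB and UVRAG lay in windows that were higher as a whole. With the offset GAA had 0.04 (0.695) in Kashlid and -0.054 (0.609) in LBD, GABARAPL1 had -0.074 (0.506) in SUN2KO and 0.04 (0.697) in Kashlid, TFEB had 0.11 (0.401) in Kashlid, and UVRAG had 0.10 (0.379), 0.10 (0.363) and 0.05 (0.661) in SUN2KO, Kashlid and LBD. ATG7 in LBD had 0.18 (0.0705). Between the lines, CTSA had -0.14 (0.0639), PSAP -0.095 (0.0838) and TFEB 0.27 (0.0594) in Kashlid against SUN2KO, and CTSA had -0.11 (0.180) and GLA -0.19 (0.0531) in LBD against SUN2KO. CTSB, whose neighbours had -0.16 in Kashlid, had 0.15 (0.0222) there with the offset, against -0.00 without it. The neighbours of GPNMB had medians of -0.44 in SUN2KO, -0.26 in Kashlid and -0.32 in LBD. Those of MAP1LC3B had -0.22, -0.25 and -0.25 in the same order, and with the offset MAP1LC3B had -0.40, -0.38 and -0.40. The calls of CTSD, SMPD1, GPNMB, HEXA, NEU1, PSAP and MAP1LC3B against WT remained in all 3 lines with the offset.

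**Figure D5:**
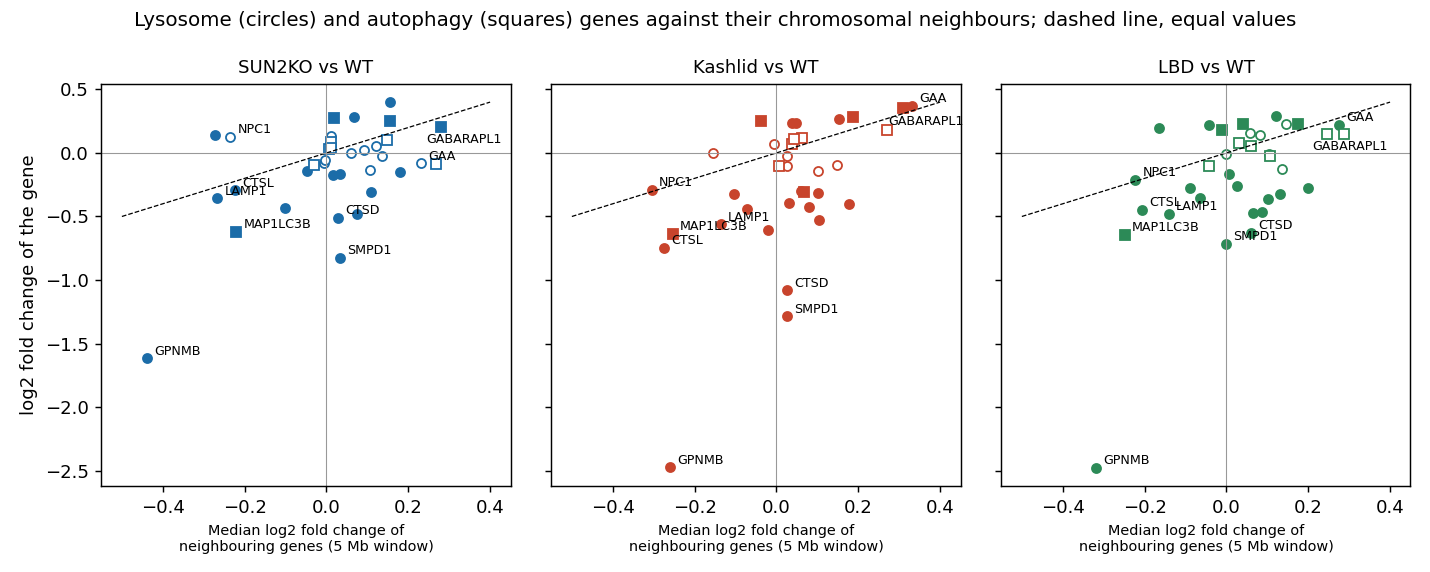
Log2 fold change against WT of each gene (vertical axis) against the median log2 fold change of its neighbours in a 5 Mb window (horizontal axis), in SUN2KO, Kashlid and LBD, for 35 genes, with filled symbols where the gene was called and a dashed line of equal values. CTSD and SMPD1 lie far below the line near a neighbour median of 0.03 in Kashlid, and GAA and GABARAPL1 lie near the line at 0.33 and 0.31.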

How the data were processed

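RNA was sequenced from 8 libraries of MDA-MB-231 cells, 2 per group. Reads were trimmed with Trim Galore and aligned with STAR 2.7.1a to hg19, and HTSeq, bedtools 2.24.0 and DESeq2 were used, per the submitters' processing notes. The authors deposited raw counts per gene, and for the counting the strand setting and the annotation were not given in the sources used here. No entry of the count table lacked a gene name. The authors also deposited tables of log2 fold changes and of p-values against WT, used only where named, and 15 unnamed columns in them were not used.

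Counts were tested with edgeR 4.0.16 in R 4.3.3: filterByExpr, TMM factors, 1 term per group over all 8 libraries, the quasi-likelihood test and Benjamini-Hochberg adjustment over all 14016 tested genes. The SE is the absolute log2 fold change divided by the square root of F. The scatter between the 2 libraries of a group, as chi-square per degree of freedom, was 2.51 in SUN2KO, 5.60 in Kashlid, 3.44 in LBD and 2.62 in WT. The fit shares 1 spread per gene over all groups, which may understate that of Kashlid. The procedure was also run on simulated data in which every group had the same spread. That run cannot show how the fit treats the larger scatter of Kashlid. Library totals of 16570099 to 18814795 limit the precision of genes with few counts, such as GPNMB. The alternatives were median-ratio or no scaling factors, no filter or 5 CPM in 2 libraries, DESeq2 1.42.0, the 2 groups alone, the replicate number as a block, each library left out, and an offset by the median of the neighbours in 5 Mb. Genes and lists were chosen with earlier results of these data known. Members called with an absolute log2 fold change of at least 0.5 are given per library, and CTSC, GLA, GAA, TFE3 and SQSTM1 were added after their values were seen. Among further genes of the pathways, up to 3 per direction, list and comparison could be named, by size of change among called genes averaging at least 5 CPM. Sequences were matched by symbol to RefSeq promoters for 30 of the 37 genes.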

Additional observations from a re-analysis of the deposited data

How the results depend on the processing

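Over the 6 comparisons, 104 results of single genes were called, of which 63 stayed called in the same direction under all 16 alternatives and 41 lost the call in at least 1. For MITF and ATP6V1H the alternative with the neighbours' offset made no correction, since they had too few neighbours. With each library left out in turn, the number of the 37 genes called ranged from 12 to 21 for SUN2KO against WT, 22 to 26 for Kashlid against WT, 18 to 26 for LBD against WT, 15 to 19 for Kashlid against SUN2KO, 4 to 14 for LBD against SUN2KO and 3 to 8 for LBD against Kashlid. Without a filter, LBD against Kashlid gave 8, where 5 were called with it. DESeq2 called 18, 24, 19, 16, 9 and 5 genes in the same order of comparisons. With the neighbours' median as an offset, signs turned for GABARAPL1 in SUN2KO (-0.074), CTSB in Kashlid (0.15), NPC1 in Kashlid (0.016), GAA in LBD (-0.054) and NPC1 in LBD (0.012), all against WT, and only CTSB was called there with the turned sign. The cause was not tested beyond what each alternative changes by construction. Deviations of same-numbered libraries correlated at -0.01 to 0.08 between groups. These values are small and cannot tell whether such libraries were handled together. With the replicate number as a block, 21, 26, 25, 19, 11 and 7 genes were called. Over all tested genes the block gave more calls in every comparison, such as 5412 beside 5137 for SUN2KO against WT. Leaving out a library leaves 1 in its group, which is assumed to vary like the others. Depth limits GPNMB most, with 36 counts in its lowest library.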
